A study of Arabidopsis thaliana with 9 samples.

Results

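Chlorophyll is taken apart in the plastid by a fixed sequence of enzymes, and 8 genes of that sequence were followed here together with 2 classical markers of leaf senescence. Earlier results of these data were known when these genes and the gene lists beside them were chosen. The 10 genes were defined by locus, with no threshold on a measured value. They were NYC1, NOL and HCAR, which turn chlorophyll b into chlorophyll a, SGR1 and SGR2, which take out the magnesium, PPH, which removes the phytol tail, and PAO and RCCR, which open the ring and reduce the product. The markers were SAG12, a cysteine protease gene, and SAG13, a gene of a short-chain reductase. All 10 loci had a probe among the 25665 loci on the array, and 9 were measured above background and tested among 21020 genes.

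The samples were whole Arabidopsis thaliana seedlings of the ecotype Col-0, aged 3 weeks. They were raised under continuous light at 22°C, for 1 week on agar with sucrose and then for 2 weeks in shaken liquid medium. Silver nitrate was added to the medium at a final 0.1 mM, and whole plants were taken 0, 48 and 72 h later. Each time had 3 arrays, which the labels describe as separate experiments with different plants, and each array carried Cy3-labelled copies of the total RNA of 1 sample. No culture without silver was analysed here for 48 or 72 h, so the effects of silver and of 2 or 3 more days in culture cannot be told apart.

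In a green leaf the breakdown of chlorophyll starts with chlorophyll b, because the later enzymes accept only the a form. NYC1 and NOL carry out the first reduction and HCAR the second. SGR1, also known as NYE1, then removes magnesium, PPH cuts off phytol, and PAO opens the ring to give a red product that RCCR converts to a colourless one. In ageing Arabidopsis leaves NYC1, SGR1, PPH and PAO are known to be switched on together as the leaf yellows, while SAG12 is used as a late marker of developmental senescence. SAG13 also responds to cell death, wounding and oxidative stress.

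Signals are given as scaled signal, which is the processed signal of the probe divided by the 75th percentile of its array. A value of 1 is therefore the level that 75% of the spots on that array stayed under. Values in a sentence follow replicates 1, 2 and 3, differences are on the log2 scale with their standard error, and the threshold for a call was an adjusted p below 0.05 (limma, Benjamini-Hochberg over all genes tested). The 75th percentile was 1612 to 3732 on the 9 arrays and 65.4% to 68.3% of spots were well above background. Replicates correlated at r = 0.963 to 0.984 at 0 h, 0.983 to 0.988 at 48 h and 0.981 to 0.991 at 72 h, across genes. Replicate 3 at 0 h had the lowest 75th percentile, and it was the highest of the 0 h arrays for NYC1, NOL and HCAR and the lowest for SGR1, PPH, PAO, RCCR and SAG13.

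The breakdown pathway did not move as 1 block. The 3 genes of chlorophyll b reduction fell at 48 h and at 72 h, SGR2 and SAG13 rose at both times, SGR1 rose at 72 h, and PPH, PAO and RCCR were not called at either time. At 48 h, 5 of the 9 tested genes were called, 2 higher and 3 lower than at 0 h, where 30% of all genes tested were called (14.2% higher and 15.8% lower). At 72 h, 6 of 9 were called, 3 higher and 3 lower, where 36.3% of all genes were called (16.9% higher and 19.4% lower). Between 72 and 48 h none of the 9 was called, as for all genes (0%), and none had an unadjusted p under 0.05, against 1927 of all 21020 genes. The arrays of 48 h and 0 h did not overlap for 6 of the 9 genes, where this held for 43.1% of all genes, and those of 72 h and 0 h for 8 of 9, where it held for 50% of all genes. SGR2 counts among the higher calls and among these genes at both times, but it passed the filter through its later arrays. With above background required on all 9 arrays it was left out. Of the 8 genes then tested, 1 was higher at 48 h and 2 at 72 h, and 3 were lower at each time.

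**Figure D1:**
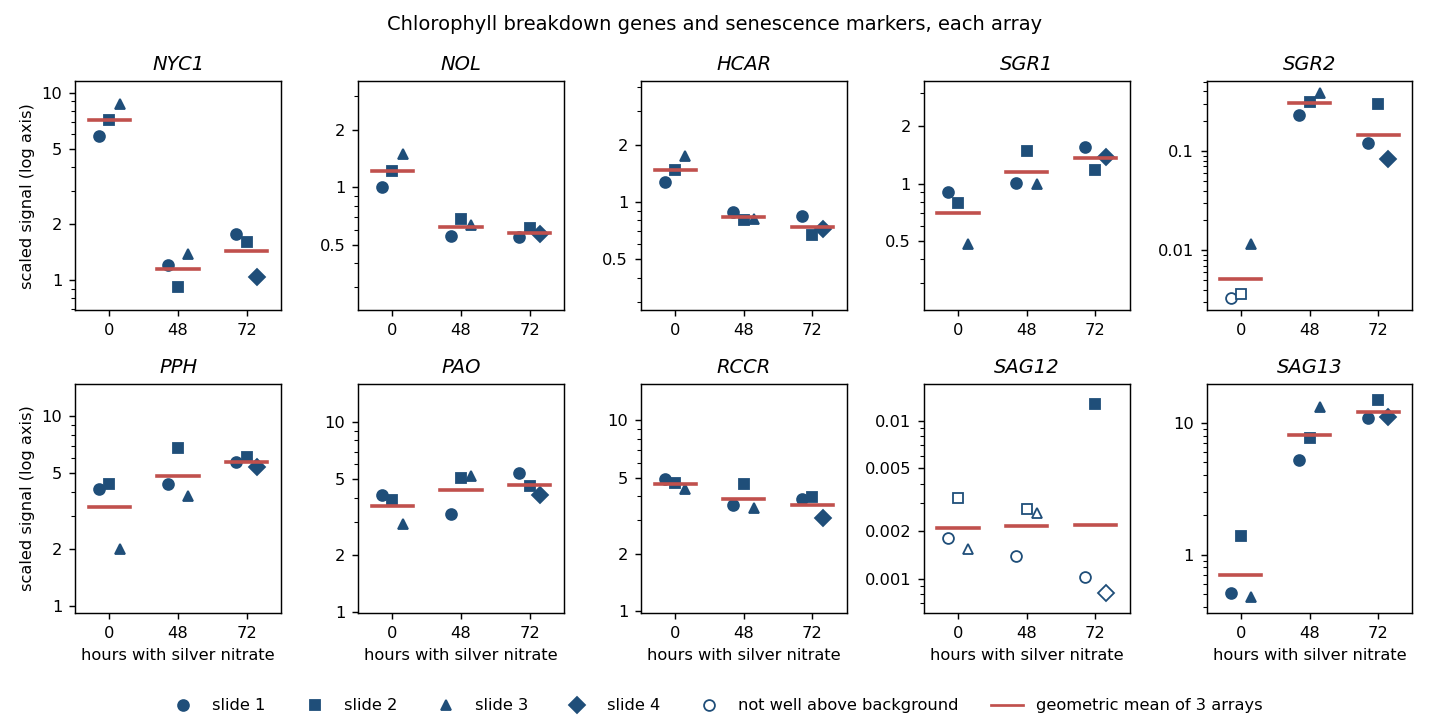
Scaled signal (log axis) of the 10 genes on each array against hours with silver nitrate, with 1 symbol per slide, open symbols for spots not well above background and a line at the geometric mean of the 3 arrays. The 0 h arrays of NYC1 lie between 5.83 and 8.63, all above its 48 h and 72 h arrays, and SAG12 is above background on 1 array of 9.

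NYC1 (AT4G13250) codes for the main chlorophyll b reductase of ageing leaves and had the largest difference of the 3 genes that act on chlorophyll b. Its scaled signal was 5.83, 7.13 and 8.63 at 0 h, 1.20, 0.921 and 1.38 at 48 h, and 1.76, 1.59 and 1.04 at 72 h. Every array of the later times lay below every 0 h array, and the arrays of 48 and 72 h overlapped. The signal was 6.18-fold lower at 48 h than at 0 h (log2 difference −2.63 ± 0.25, adjusted p = 2e-04) and 4.98-fold lower at 72 h (−2.32 ± 0.25, adjusted p = 0.000232). Larger changes in either direction were found for 3.22% of all genes at 48 h and for 5.62% at 72 h. Within a slide, where both times had an array, the difference was −2.28, −2.95 and −2.65 at 48 h and −1.73 and −2.17 at 72 h.

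NOL (AT5G04900), the partner of NYC1 in the same reduction, also fell. Its scaled signal was 1.00, 1.22 and 1.50 at 0 h, 0.556, 0.680 and 0.631 at 48 h, and 0.546, 0.610 and 0.567 at 72 h. The later arrays all lay below the 0 h arrays. The log2 difference was −0.98 ± 0.16 at 48 h (adjusted p = 0.00265) and −1.09 ± 0.16 at 72 h (adjusted p = 0.00119).

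HCAR (AT1G04620), the reductase of the second step from chlorophyll b to a, had scaled signals of 1.27, 1.47 and 1.74 at 0 h, 0.891, 0.809 and 0.817 at 48 h, and 0.844, 0.669 and 0.720 at 72 h. Again no later array reached the lowest 0 h array. The log2 difference was −0.82 ± 0.15 at 48 h (adjusted p = 0.00438) and −0.999 ± 0.15 at 72 h (adjusted p = 0.0013). Without the arrays of slides 3 and 4, which leaves 2 arrays a time, the 48 h difference was −0.69 and was no longer called (adjusted p = 0.0662).

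Whole seedlings were measured, so fewer cells of a type and less RNA per cell cannot be told apart. Markers of green tissue (RBCS1A, CA1, RCA, PRK and GAPB) were all above background on every array, and their summed scaled signal was 320.2 to 359.8 at 0 h, 137.8 to 175.1 at 48 h and 143.9 to 164.5 at 72 h. The sum of the 6 root markers was 3.79 to 4.83 at 0 h, 3.13 to 3.78 at 48 h and 3.45 to 4.51 at 72 h, but its members moved in opposite directions. The root hair genes COBL9 and PRP3 were called lower at both times (PRP3 was above background on no 72 h array), SHR and PIN2 higher at 72 h, and RHD6 and SCR at neither time. The sum of 3 guard cell markers was 2.09 to 2.82 at 0 h, 1.48 to 2.06 at 48 h and 1.42 to 1.65 at 72 h. The arrays of KAT1, 1 of the 3, overlapped between 0 h (0.221 to 0.575) and 72 h (0.437 to 0.585). Of 4 seed genes, CRU1, CRU3 and OLEO1 were above background on no array at any time, and SESA5 only at 48 and 72 h. The part of these shifts in the falls of NYC1, NOL and HCAR was not tested.

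SGR1 (AT4G22920) codes for the magnesium dechelatase, the product of the stay-green locus. Its scaled signal was 0.908, 0.793 and 0.480 at 0 h, 1.01, 1.49 and 0.998 at 48 h, and 1.56, 1.19 and 1.38 at 72 h. The later arrays all lay above the 0 h arrays, by a small margin at 48 h. SGR1 rose 1.95-fold at 72 h over 0 h (0.96 ± 0.26, adjusted p = 0.0206). At 48 h the difference of 0.71 ± 0.26 (95% interval 0.11 to 1.31) was not called (adjusted p = 0.0747).

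The SGR1 calls depended on single arrays. Without 72 h replicate 1 the 72 h difference was 0.86 (adjusted p = 0.0658), without 72 h replicate 3 it was 0.95 (adjusted p = 0.0598), with slides 3 and 4 left out 0.68 (adjusted p = 0.123), and with slide as a fixed block it was 0.77 (adjusted p = 0.0909). Without 0 h replicate 3, the lowest array, the 48 h difference was 0.43 (adjusted p = 0.177). Without 0 h replicate 1 it was 0.89 and was called (adjusted p = 0.0371).

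SGR2 (AT4G11910), a close relative of SGR1 whose part in chlorophyll breakdown has been described in opposite ways, rose at both times. Its scaled signal was 0.00332, 0.00360 and 0.0115 at 0 h, 0.230, 0.312 and 0.380 at 48 h, and 0.121, 0.297 and 0.0839 at 72 h. At 0 h it was well above background on 1 array of 3, replicate 3, and at both later times on all 3. The lowest later array was still above the highest 0 h array.

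SGR2 passed the filter through its later arrays, so the size of its rise rests on a 0 h level that was measured on 1 array. The fitted rise was 58.3-fold at 48 h over 0 h (5.86 ± 0.57, adjusted p = 0.000233) and 27.9-fold at 72 h (4.80 ± 0.57, adjusted p = 0.000384). With the 2 dim 0 h arrays set to the lowest signal well above background on each, it was 43.6-fold at 48 h and 20.9-fold at 72 h, a value with no test, chosen after the data were seen. With normexp background correction it was 7.97-fold at 48 h (adjusted p = 0.00129) and 4.17-fold at 72 h (adjusted p = 0.00703). Without slides 3 and 4 the rise was 77.5-fold at 48 h and 54.7-fold at 72 h, and with slide as a fixed block 47.4-fold at 72 h. The 3 arrays of 72 h spread widely, and the difference of −1.06 between 72 and 48 h was not called (95% interval −2.36 to 0.24, adjusted p = 0.668).

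**Figure D2:**
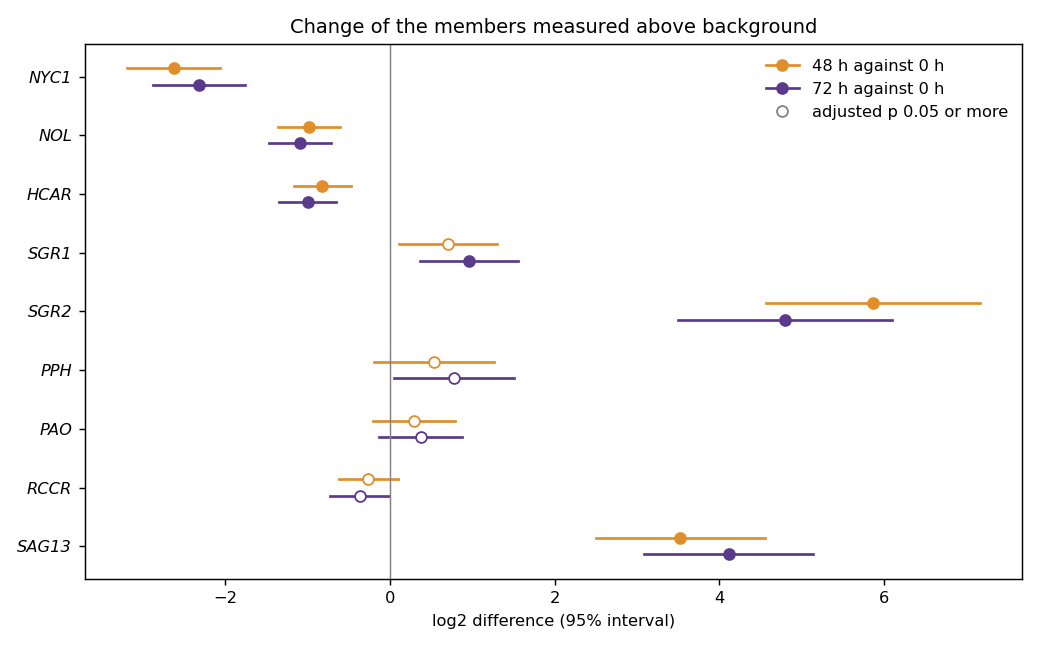
Log2 difference against 0 h, with its 95% interval, of the 9 genes measured above background, at 48 h and at 72 h (open circles for an adjusted p of 0.05 or more). NYC1, NOL and HCAR lie left of 0 at both times, SGR2 and SAG13 far to the right, and the intervals of PAO include 0 at both times.

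PPH (AT5G13800), the pheophytinase that removes phytol, was not called at either time. Its scaled signal was 4.16, 4.41 and 2.02 at 0 h, 4.42, 6.76 and 3.80 at 48 h, and 5.74, 6.08 and 5.38 at 72 h. The 72 h arrays all lay above the 0 h arrays, and the 48 h arrays overlapped them. The log2 difference was 0.54 ± 0.32 at 48 h (95% interval −0.19 to 1.27, adjusted p = 0.245) and 0.78 ± 0.32 at 72 h (95% interval 0.05 to 1.51, adjusted p = 0.0895). Without 0 h replicate 3 it was 0.18 at 48 h and 0.42 at 72 h. In the deposited value table the 72 h difference was 1.01 and passed (adjusted p = 0.0466).

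PAO (AT3G44880, also ACD1), the oxygenase that opens the ring, had scaled signals of 4.16, 3.88 and 2.92 at 0 h, 3.28, 5.07 and 5.20 at 48 h, and 5.39, 4.59 and 4.14 at 72 h. Both later times overlapped 0 h. The log2 difference was 0.29 ± 0.22 at 48 h (95% interval −0.21 to 0.79, adjusted p = 0.365) and 0.37 ± 0.22 at 72 h (95% interval −0.13 to 0.88, adjusted p = 0.224). The intervals reach up to 0.88, so an unchanged level was not shown.

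RCCR (AT4G37000, also ACD2), which reduces the red product of PAO, had scaled signals of 4.91, 4.70 and 4.39 at 0 h, 3.62, 4.66 and 3.49 at 48 h, and 3.87, 3.96 and 3.09 at 72 h. The 72 h arrays all lay below the 0 h arrays. The log2 difference was −0.26 ± 0.16 at 48 h (adjusted p = 0.253) and −0.37 ± 0.16 at 72 h (adjusted p = 0.104), and neither was called. Across the 8 breakdown genes, then, the first 3, of chlorophyll b reduction, were lower. The 2 dechelatase genes were called higher at 72 h, SGR1 not in every alternative and SGR2 from a 0 h level near background. The last 3 did not pass the test in either direction.

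SAG13 (AT2G29350) rose strongly while SAG12 (AT5G45890) was near background. SAG13 had scaled signals of 0.516, 1.38 and 0.480 at 0 h, 5.22, 7.68 and 13.1 at 48 h, and 10.8, 14.8 and 11.1 at 72 h. The lowest later array was well above the highest 0 h array, replicate 2. SAG13 was 11.5-fold higher at 48 h than at 0 h (3.53 ± 0.45, adjusted p = 0.000744) and 17.3-fold higher at 72 h (4.11 ± 0.45, adjusted p = 0.000266). It ranked 172nd among the rises at 48 h and 120th at 72 h. Its other probe gave log2 differences of 3.60 at 48 h and 4.07 at 72 h. Without slides 3 and 4 the rise at 48 h was 7.50-fold (adjusted p = 0.0253).

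SAG12, whose product is a vacuolar papain-like protease, was well above background on 1 of 9 arrays, 72 h replicate 2, and was therefore not tested. Its scaled signal was 0.00180, 0.00326 and 0.00155 at 0 h, 0.00139, 0.00275 and 0.00261 at 48 h, and 0.00102, 0.0129 and 0.000805 at 72 h. The arrays of 0 and 48 h overlapped, and at 72 h replicates 1 and 3 were lower and replicate 2 higher than all of them. On these arrays the lowest scaled signal well above background was 0.00400 to 0.00769, so a lower level was not detectable.

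SAG13 lies in a row of genes for reductases related to tropinone reductase, and its neighbours moved in both directions. Of 11 further genes of that row 10 were tested, with 1 higher and 6 lower at 48 h and 2 higher and 5 lower at 72 h than at 0 h (median log2 difference −0.77 and −0.82, against 0.015 and 0.007 over all genes, of which 30% and 36.3% were called). Higher calls numbered 2 at 48 h without 48 h replicate 1, and 1 at 72 h without 0 h replicate 2, 72 h replicate 1 or 72 h replicate 2. The next gene along the chromosome, AT2G29360, had a scaled signal of 0.282 to 0.393 at 48 h, against 0.590 to 0.691 at 0 h, and its log2 difference was −0.92 at 48 h and −1.12 at 72 h (adjusted p = 0.00247 and 0.000729). The gene on the other side, AT2G29340, was not called (0.55 and 0.75, adjusted p = 0.21 and 0.0842).

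The most negative log2 differences in the row were those of AT2G29290, which fell by 3.08 at 48 h and by 3.25 at 72 h on the log2 scale (adjusted p = 0.000125 and 7.39e-05). AT2G29300 fell by 2.29 and AT2G29170 by 2.38 at 72 h (adjusted p = 3.76e-05 and 0.000986). At the far end, AT2G29150 was above background on no 0 h array and passed the filter only through its later arrays. It was at least 4.45-fold higher at 48 h and at least 4.78-fold higher at 72 h. These bounds, which have no test, set the mean of its arrays at 48 or 72 h against the lowest signal well above background on the 0 h arrays. The fitted log2 differences of 3.98 and 4.08 used its dim 0 h values (adjusted p = 0.00125 and 0.000825, limma). With above background required on all 9 arrays it was left out, and none of the other neighbours was called higher at 48 h. The genes of the row resemble one another, and how far each probe tells them apart was not tested.

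**Figure D3:**
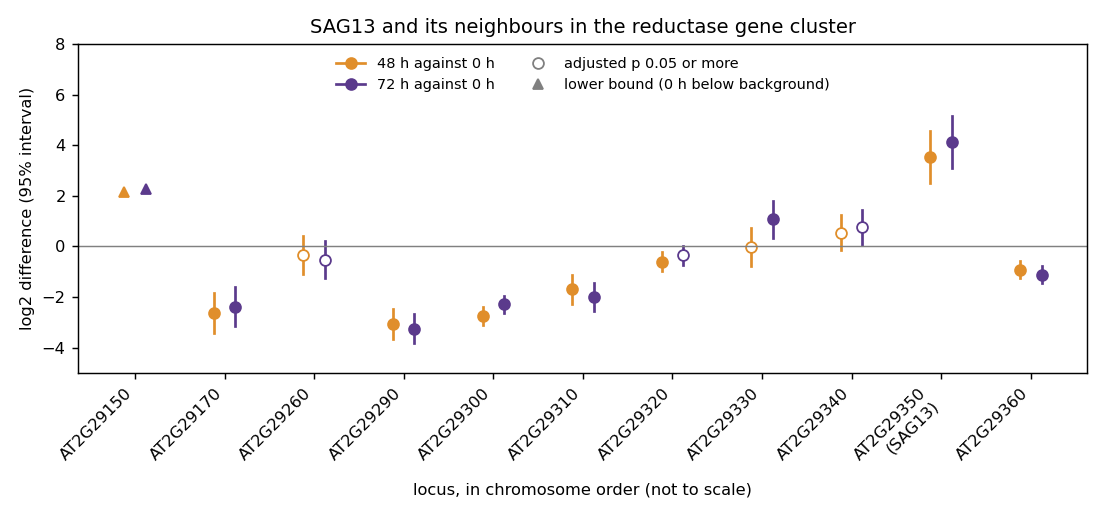
Log2 difference against 0 h, with its 95% interval, of SAG13 and the 10 tested neighbours, in chromosome order (not to scale). SAG13 lies at 3.53 (48 h) and 4.11 (72 h) between AT2G29340, not called, and AT2G29360, below 0 at both times; triangles are lower bounds.

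Further genes of chlorophyll breakdown were called in both directions. Of 8 such genes, 2 were higher and 3 lower at 48 h than at 0 h, and 2 were higher and 2 lower at 72 h (median log2 difference 0.23 and 0.08), where 30% and 36.3% of all genes were called. SGRL, a relative of SGR1 that acts on chlorophyllide, had a scaled signal of 3.31 to 4.06 at 72 h, against 9.08 to 11.6 at 0 h, and fell by 1.42 at 48 h and by 1.54 at 72 h on the log2 scale (adjusted p = 0.000377 and 0.000186). Within the SGR family, SGR1 and SGR2 were thus called higher at 72 h than at 0 h and SGRL was called lower. The SGR1 call was lost in 4 of 21 alternatives, and SGR2 was well above background on 1 of 3 arrays at 0 h.

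CLH1, a chlorophyllase that is not needed for breakdown in ageing leaves, had a scaled signal of 22.5 to 54.8 at 72 h, against 7.54 to 16.7 at 0 h (1.42 ± 0.43, adjusted p = 0.0311). MES16, an esterase that acts on the late products, fell by 1.82 at 48 h and by 1.20 at 72 h (adjusted p = 0.000861 and 0.00488). ABCC3, which carries such products into the vacuole, rose by 0.64 and 0.84 (adjusted p = 0.0287 and 0.00684). TIC55, which hydroxylates them, was lower at 48 h (−0.81, adjusted p = 0.0309), and CLH2, CYP89A9 and PTC52 were called at neither time. Without slides 3 and 4 none of the 8 was called higher at either time, and 2 were called lower at 48 h and 1 at 72 h. Leaving out 48 h replicate 2 or 3 left none higher at 48 h, and leaving out any single 0 h array left 1. At 72 h 1 was higher when replicate 1 or 2 of 0 h, or replicate 2 or 3 of 72 h, was left out.

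Phytol set free from chlorophyll is stored as esters or reused for vitamin E. Of 6 genes for these steps, 2 were higher and 1 lower at 48 h than at 0 h, and 3 were higher and 2 lower at 72 h, where 30% and 36.3% of all genes were called. The lower call at 48 h was lost without any 1 array of 0 or 48 h or 72 h replicate 3, and 2 were lower without 72 h replicate 2. At 72 h 1 was lower without 0 h replicate 1 or 72 h replicate 1 or 3, and without slides 3 and 4 only 1 gene was higher at each time. The phytyl ester synthase gene PES2 had a scaled signal of 0.692 to 1.38 at 48 h and 1.24 to 1.30 at 72 h, against 0.129 to 0.378 at 0 h. PES2 rose by 2.09 at 48 h and by 2.45 at 72 h (adjusted p = 0.00387 and 0.00138), and its relative PES1 by 1.20 and 1.05 (adjusted p = 0.00857 and 0.0134). In the vitamin E pathway VTE1, the tocopherol cyclase gene, fell by 0.94 at 72 h (adjusted p = 0.0235) and VTE2, the homogentisate phytyltransferase gene, rose by 0.91 (adjusted p = 0.0295).

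Chlorophyll synthesis moved one way. Of 12 genes, none was higher and 11 were lower at both 48 h and 72 h than at 0 h, with a median log2 difference of −1.33 and −1.57. Over all genes, 15.8% were lower at 48 h and 19.4% at 72 h. PORA, a protochlorophyllide reductase gene known from dark-grown seedlings, had a scaled signal of 0.0365 to 0.0673 at 48 h and 0.0342 to 0.0395 at 72 h, against 0.220 to 1.61 at 0 h. It fell by 3.98 at 48 h and by 4.41 at 72 h (adjusted p = 0.00255 and 0.00119). HEMA1, which opens tetrapyrrole synthesis, fell by 2.66 and 2.48, DVR by 2.01 and 2.40, and CHLH, a subunit of the magnesium chelatase, by 1.92 and 2.23 (highest adjusted p = 0.000801 among these 6 differences). CAO, which makes chlorophyll b, was not called (−0.75 and −0.68, adjusted p = 0.12 and 0.143). All 12 genes, CAO among them, had an unadjusted p under 0.05 at 48 h (limma). Thus the RNA of the enzymes that remove chlorophyll b was called lower, while that of CAO was not called and its arrays of the 3 times overlapped. At 48 h the difference of CAO was close to that of HCAR (−0.82). Whether the removing and the making genes differ in their change was not tested.

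The light-harvesting proteins bind most of the chlorophyll b of a leaf. Of 16 of their genes listed here, not the whole family, none was higher and 14 were lower at each time than at 0 h. Their median log2 difference was −1.12 at 48 h and −1.45 at 72 h. The share of all genes called lower was 15.8% and 19.4%. LHCB2.3 had a scaled signal of 1.66 to 2.66 at 48 h and 0.672 to 1.22 at 72 h, against 7.45 to 9.99 at 0 h, and fell by 2.08 and 3.20 (adjusted p = 0.000719 and 8.43e-05). LHCB4.3 fell by 2.09 and 2.39, and LHCA3 by 1.41 and 1.71 (highest adjusted p = 0.000836). NYC1 fell by more than the median of either group, but this was not tested.

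**Figure D4:**
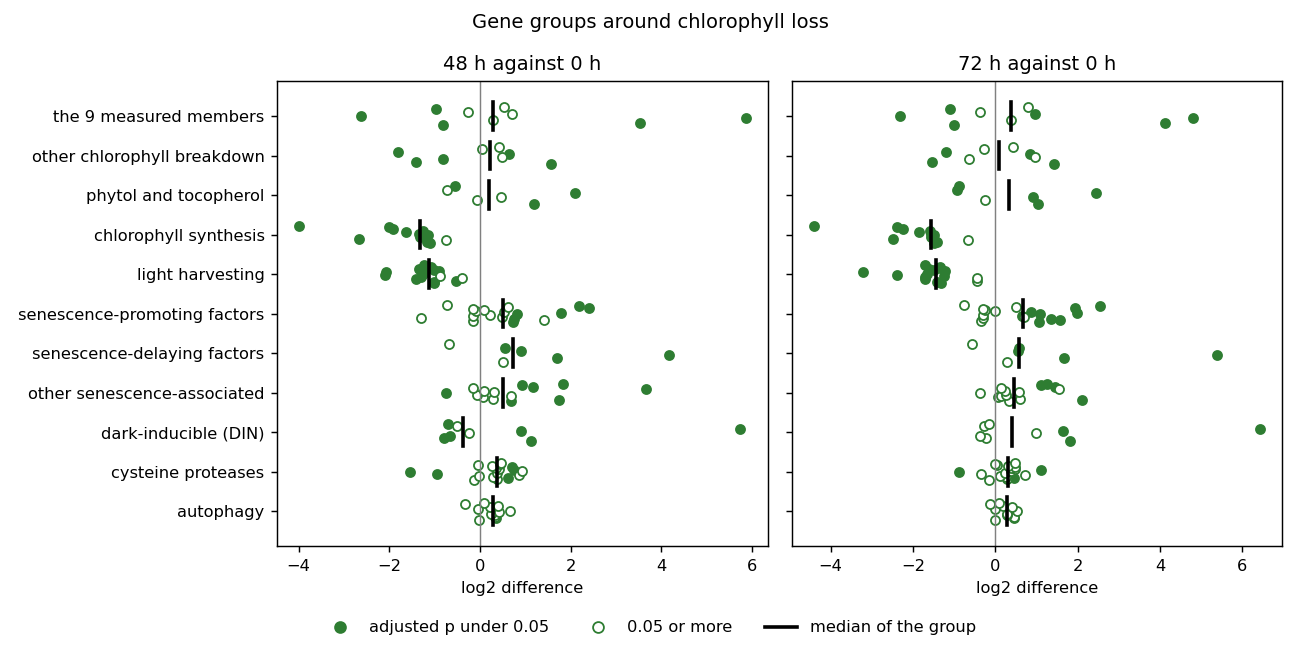
Log2 difference of each tested gene in 11 groups, at 48 h against 0 h (left) and 72 h against 0 h (right), filled where the adjusted p was under 0.05, with a bar at the group's median. Chlorophyll synthesis and light harvesting lie left of 0, with medians of −1.57 and −1.45 at 72 h, while the 9 measured members lie on both sides.

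Among transcription factors known to promote leaf senescence, calls were for higher levels. Of 18 genes, 6 were higher and none lower at 48 h than at 0 h, and 9 were higher and none lower at 72 h (median log2 difference 0.51 and 0.67), where 14.2% and 16.9% of all genes were higher. In 9 of 21 alternatives at 48 h and 3 at 72 h, 1 of the 18 was called lower, among them those without 0 h replicate 3, 48 h replicate 3 or 72 h replicate 1 at 48 h and without 0 h replicate 3 at 72 h. WRKY75 had a scaled signal of 7.60 to 12.5 at 48 h and 11.5 to 14.5 at 72 h, against 1.87 to 2.39 at 0 h, and rose by 2.18 and 2.55 (adjusted p = 0.000185 and 7.2e-05). Without slides 3 and 4 the number called higher was 1 at 48 h and 4 at 72 h.

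Several of these factors are known to bind promoters of the breakdown genes. The NAC factors ANAC055, ANAC072 and ANAC019 form a group of close relatives, of which ANAC072 and ANAC019 activate SGR1. ANAC055 rose by 1.78 at 48 h and by 1.99 at 72 h (adjusted p = 0.00399 and 0.00182), and ANAC072 by 2.41 and 1.93 (adjusted p = 0.0029 and 0.00684). ANAC019 rose by 1.57 at 72 h (adjusted p = 0.0321), while its 48 h difference of 1.42 was not called (adjusted p = 0.0546). ANAC046, which activates NYC1, SGR1, SGR2 and PAO, rose by 0.82 and 1.08 (adjusted p = 0.0335 and 0.00846).

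Among the other factors on the list, ORE1, NAP, EIN3, ABI5, PIF4 and PIF5 were called at neither time, and EEL at 72 h only. Not all factors on the list are described here in full. WRKY53 and ABF2, neither called lower, had scaled signals of 5.36 to 6.99 and 0.569 to 0.642 at 72 h, against 6.20 to 8.58 and 0.700 to 0.855 at 0 h. The arrays of ABF3 overlapped between 0 h (0.720 to 2.52) and 72 h (1.82 to 2.13). ABF4 had a scaled signal of 5.91 to 6.10 at 72 h, against 2.59 to 3.90 at 0 h. For ANAC016 these were 0.782 to 1.06 and 0.323 to 0.523, and for WRKY6 2.28 to 3.25 and 0.948 to 1.18. ORE1, a central NAC factor of leaf ageing, had differences of −0.74 at 48 h and −0.77 at 72 h (adjusted p = 0.0969 and 0.0767), and NAP of −1.30 and −0.31 (adjusted p = 0.0516 and 0.613). EIN3, the ethylene signalling factor that acts on ORE1 and on breakdown genes, had differences of −0.09 and −0.01 (adjusted p = 0.64 and 0.943). The ABA-response factor ABI5 had differences of 0.49 and 0.69 (adjusted p = 0.172 and 0.0596), and its relative EEL rose by 0.65 at 72 h (adjusted p = 0.017). PIF4 and PIF5, which act in dark-induced yellowing, were not called (adjusted p = 0.52 and 0.83 at 48 h, and 0.367 and 0.499 at 72 h).

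Over all genes tested, 14.2% were called higher at 48 h and 16.9% at 72 h. Of 6 genes for factors known to delay senescence, 4 were higher and none lower at each time than at 0 h. In 4 of 21 alternatives at 48 h (without 0 h replicate 3 among them) and 2 at 72 h, 1 was called lower, and 2 were higher at 72 h without 72 h replicate 2 or 3. JUB1, a NAC factor induced by hydrogen peroxide that prolongs leaf life, had a scaled signal of 1.61 to 3.82 at 48 h and 4.14 to 7.27 at 72 h, against 0.0806 to 0.192 at 0 h. It rose 18.1-fold at 48 h and 41.8-fold at 72 h (adjusted p = 0.000228 and 5.88e-05). WRKY54 rose by 1.70 and 1.68 and WRKY70 by 0.91 and 0.55, and the NAC repressor gene VNI2 by 0.56 and 0.58 (highest adjusted p = 0.0447). GLK1 and GLK2, activators of chlorophyll synthesis genes, were not called: GLK1 had differences of 0.52 and 0.29, and GLK2 of −0.69 and −0.56.

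Beside SAG12 and SAG13, 14 further genes known to rise in ageing leaves were listed. At 48 h, 6 were higher and 1 lower than at 0 h, and at 72 h 4 were higher and none lower, where 14.2% and 16.9% of all genes were higher. Without 48 h replicate 2, and without slides 3 and 4, 3 were higher at 48 h, with slide as a fixed block 2 at 72 h, and without 72 h replicate 1, 1 was lower at 72 h. SRG1, an oxygenase gene, rose by 1.75 and 2.10 (adjusted p = 0.0125 and 0.00422), and SAG14, a blue copper protein gene, by 1.16 and 1.44 (adjusted p = 0.0247 and 0.00801). SAG113, which codes for a phosphatase of ABA signalling, rose by 1.84 and 1.25 (adjusted p = 0.00144 and 0.00726), and ERD1, a plastid protease regulator gene, by 0.93 and 1.10 (adjusted p = 0.0148 and 0.0055). SAG21 was the gene that fell at 48 h, by 0.76 (adjusted p = 0.00965). The sugar transporter gene SWEET15, also SAG29, which was singled out after its values were seen, rose by 3.67 at 48 h (adjusted p = 0.01) but was not called at 72 h (1.54, adjusted p = 0.176).

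Genes first found by their rise in darkness or sugar shortage, named DIN, were split at 48 h. Of 8, 3 were higher (DIN2, DIN9 and DIN11) and 3 lower (DIN3, DIN4 and DIN10) than at 0 h, and at 72 h the same 3 were higher and none was lower, where 30% and 36.3% of all genes were called. Without 48 h replicate 3 only 1 was lower at 48 h, and without slides 3 and 4, 1 was higher and none lower. DIN2, a beta-glucosidase gene, had a scaled signal of 4.19 to 10.7 at 48 h and 6.34 to 13.1 at 72 h, against 0.0371 to 0.400 at 0 h. It rose by 5.75 and 6.43 on the log2 scale (adjusted p = 0.000955 and 0.000408). DIN1, also known as SEN1 and a common marker of dark-induced senescence, was not called (−0.51 and −0.29, adjusted p = 0.268 and 0.519).

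SAG12 belongs to the papain-like cysteine proteases, and 18 further cysteine protease genes were measured. At 48 h 3 were higher and 2 lower than at 0 h, and at 72 h 2 were higher and 1 lower, where 30% and 36.3% of all genes were called. Higher calls at 48 h numbered 8 without 0 h replicate 1 and 1 without 48 h replicate 3 or without slides 3 and 4. At 72 h they numbered 4 without 0 h replicate 1 and 1 without 0 h or 48 h replicate 2 or any 72 h array, and the lower call was lost when replicate 1 or 3 of either time, or slides 3 and 4, were left out. CTB3, a cathepsin B gene, had a scaled signal of 46.5 to 48.9 at 72 h, against 15.2 to 28.8 at 0 h, and rose by 0.76 at 48 h and by 1.10 at 72 h (adjusted p = 0.0387 and 0.00641). CEP2 fell by 1.54 and 0.88 (adjusted p = 0.00305 and 0.0308). XCP2, a protease of xylem vessel cells, rose by 0.62 and 0.45 (adjusted p = 0.0107 and 0.0326). All 4 xylem markers were called higher at both times, but 2 at 48 h and none at 72 h without slides 3 and 4, and their summed scaled signal was 1.82 to 2.55 at 0 h, 3.75 to 4.46 at 48 h and 3.27 to 3.56 at 72 h; their part in the change of XCP2 was not tested.

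Autophagy, which carries plastid material to the vacuole in ageing leaves, had few calls, and their number depended on the setting. Of 12 genes none was called at 48 h by limma, with 3 at an unadjusted p under 0.05, and 2 were higher at 72 h than at 0 h, where 30% and 36.3% of all genes were called. These were ATG8G and ATG8D, which rose by 0.47 and 0.46 at 72 h (adjusted p = 0.044 and 0.046). None was called at 72 h when any 1 array other than 0 h replicate 1 or 48 h replicate 3 was left out, and 4 were without 0 h replicate 1. At 48 h 1 was higher without 0 h replicate 1 or 48 h replicate 1.

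For each member called at 72 h, the profile over the 9 arrays was set against those of 8859 genes that had a symbol and were above background on every array (8860 for SGR2). Likeness was the root mean square of the log2 difference after each gene's own mean was taken out, and 0 would be an identical profile. This is a description, with no test, over arrays that share the same samples. NYC1, whose own profile had a root mean square of 1.20 around its mean, was nearest to HEMA1 (0.238) and to PnsL2 (0.243), a subunit gene of a plastid dehydrogenase complex. SAG13 (1.89) was nearest to MYB21 (0.285) and GSTL1 (0.34), and SGR2 (2.64) to PAP1 (0.85) and BHLH101 (0.874). The smaller profiles had nearer genes, and this distance tends to grow with the size of the member's own change. NOL (0.515) was nearest to CLPP6 and LPA3 (both 0.085), HCAR (0.457) to TMK1 (0.07) and PETE1 (0.084), and SGR1 (0.499) to CYP81H1 (0.111) and RIN2 (0.117). Within a distance of 0.3 lay 757 genes for NOL, 918 for HCAR and 440 for SGR1. There were 9 for NYC1, 1 for SAG13 and 0 for SGR2.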

How the data were processed

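The members and gene lists were chosen with earlier results of these data known. The authors deposited, per the file headers, 1 file per array made with Agilent Feature Extraction 9.5.3.1. Its processed signal is a background-subtracted intensity with no scaling between arrays. A deposited value table holds a ratio on a linear scale; its reference level per probe is not given in the sources used here, 37.3% of its probes have an array at exactly 1, its array medians were 0.901 to 1.11, and it served as an alternative only. Each array had 39102 spots, of which controls were left out. Over the 9 arrays together, 80 spots marked as outliers were also left out (2 to 15 on an array). Saturation was marked on 0 spots. Values were log2 processed signal minus the array's 75th percentile. Loci came from the files' gene column (case ignored, transcript suffix dropped), and symbols from the RefSeq gene table. A probe had to be well above background on all 3 arrays of a time, and the brightest probe stood for a locus. limma 3.58.1 in R 4.3.3 fitted 1 mean per time to all 9 arrays (two-sided, 6 degrees of freedom from the residuals and 2.54 from the prior; the median standard error was 0.194). In simulated data of the same 21020 genes, 100 genes were changed by a log2 of 1 and 100 by 2. Of these, 61% and 86% were called at 48 h, and 58% and 86% at 72 h. In the data 30% and 36.3% of genes were called. The adjusted p depends on how many genes change, so these shares do not give the power of the tests here. Arrays lay on 4 slides (replicates 1 on slide 1, replicates 2 on slide 2, replicate 3 of 0 and 48 h on slide 3, of 72 h alone on slide 4), used as batches. The normexp alternative used the median signal of each spot. All members were named; from other lists, up to 4 called genes with the largest change at 72 h, known direct regulators of members, and genes singled out by a small count.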

Additional observations from a re-analysis of the deposited data

How the results depend on the processing

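Over 21 alternatives (20 for SGR2, not tested where all 9 arrays had to be above background), 551 single-gene values of the 9 members kept direction and side of the threshold, 5 lost a call (SGR1 at 72 h in 4, HCAR at 48 h in 1) and 4 gained one. The gains were SGR1 at 48 h without 0 h replicate 1 and with slide as a random block (adjusted p = 0.0373), and PPH at 72 h in the value table and with the replicate block (adjusted p = 0.0339). The replicate numbers were not shown to pair the samples (correlations of deviations −0.039 to 0.401), and with the replicate block 5, 7 and 0 members were called at 48 h, 72 h and between 72 and 48 h, and 6740, 8150 and 6 genes. The 4 reversals concerned uncalled differences between 72 and 48 h: PAO was −0.13 without 48 h replicate 1 and −0.021 without 72 h replicate 1, and RCCR 0.026 without 48 h replicate 2 and 0.0093 without 72 h replicate 3 (over all arrays left out in turn, −0.13 to 0.20 for PAO and −0.18 to 0.026 for RCCR). Leaving out 1 array gave 5 to 6 members called at 48 h and at 72 h and 0 between the later times, and 4654 to 6972, 5628 to 8479 and 0 to 7 genes. Without slides 3 and 4, chosen after seeing the data, which leaves 2 arrays a time, 3035 genes were called at 48 h and 4397 at 72 h, against 6308 and 7624. Between 72 and 48 h, where the smallest adjusted p was 0.0511, 1 gene passed with normexp correction or in the value table, 2 with median scaling, 3 with quantile scaling or only the 2 times compared, and 6 with slide as a random block. Median scaling moved the median of all genes by −0.103 at 48 h, and the value table by 0.136 at 48 h and 0.224 at 72 h. In that alternative 59.6% of calls at 48 h and 65.2% at 72 h were higher, against 47.4% and 46.5%. No called gene of any list changed sign under any of the 21 alternatives. Having 3 arrays a time, and a signal near background for SGR2 at 0 h and SAG12, limits the precision.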
